A study of Mus musculus with 3 samples.

Results

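The genes described here encode secreted products of the male accessory glands: Svs1, Svs2, Svs3a, Svs4, Svs5, Svs6, Spink3 and Ceacam10 of the seminal vesicle, and Sbp and Tgm4 of the prostate. They were measured in females, in the utero-tubular junction, the constricted segment where the uterine horn meets the oviduct and which sperm pass on their way to the egg. Members were chosen by name, as all non-control probes whose gene name on the array is one of these 10 names. The array carried 7 of the 10 under those names, on 8 of its 41174 probes, out of 27670 gene names. A further 2, Svs3a and Svs4, were present under the older names Svs3 and Svp2 and were matched through their RefSeq accessions, which gave 9 genes on 10 probes. No probe was named for or matched to Spink3, which was not analysed here.

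The 3 groups were adult CD-1 females in estrus that had mated with normal males, adult CD-1 females in estrus that had mated with vasectomized males, and adult CD-1 females in estrus that had not mated. CD-1 is an outbred mouse stock. Each group was 1 pool of total RNA from 10 females on 1 single-colour Agilent array, so the values below compare 3 pools and carry no error between animals. A vasectomized male delivers the secretions of the accessory glands without sperm, and the question put to these genes is whether their RNA is seen in the female tract after mating, as carried-over gland RNA or as local expression. In a pooled tissue, a few cells or vesicles with much of an RNA and many cells with little of it cannot be told apart. How long after mating the tissue was taken is not given here.

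The seminal vesicles secrete most of the volume of mouse semen, including the proteins that set into the copulatory plug. Tgm4, a transglutaminase of the prostate, cross-links the plug, and Svs2 is its main substrate, a relative of human semenogelin. Most Svs genes lie in 1 cluster that also holds the protease inhibitor Slpi, and their transcription in the male glands depends on androgen. Steroid receptors of the progesterone and glucocorticoid type bind paired hexamers of the type AGAACA.

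Probe sequences are not in the files used here, so the promoters of the members that the results turn on are shown, as the 250 bases before the first RefSeq start (build GRCm38.p6), with every AGAACA or TGTTCT in capitals. These are the same hexamer read on either strand, and the 2 forms were searched together. Svs5 and Svs6 are shown because the first was detected and the second was not, and Ceacam10 because it was lower after both matings. Sbpl is shown because the probe named Sbp that gave a signal appears to lie at this neighbour, as described below. The windows are chr2:164332515-164332764 (plus strand) for Svs5, chr2:164316501-164316750 (plus strand) for Svs6, chr7:24776917-24777166 (plus strand) for Ceacam10 and chr17:23955274-23955523 (minus strand) for Sbpl.
Svs5: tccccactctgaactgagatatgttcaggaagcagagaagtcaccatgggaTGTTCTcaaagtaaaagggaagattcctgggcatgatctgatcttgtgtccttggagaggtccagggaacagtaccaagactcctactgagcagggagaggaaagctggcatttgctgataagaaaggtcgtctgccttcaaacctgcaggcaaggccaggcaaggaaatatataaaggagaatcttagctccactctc
Svs6: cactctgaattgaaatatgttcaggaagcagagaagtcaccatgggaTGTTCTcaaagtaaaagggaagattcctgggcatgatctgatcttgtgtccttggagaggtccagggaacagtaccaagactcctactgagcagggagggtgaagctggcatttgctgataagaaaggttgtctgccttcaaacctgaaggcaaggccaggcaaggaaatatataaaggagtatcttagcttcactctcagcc
Ceacam10: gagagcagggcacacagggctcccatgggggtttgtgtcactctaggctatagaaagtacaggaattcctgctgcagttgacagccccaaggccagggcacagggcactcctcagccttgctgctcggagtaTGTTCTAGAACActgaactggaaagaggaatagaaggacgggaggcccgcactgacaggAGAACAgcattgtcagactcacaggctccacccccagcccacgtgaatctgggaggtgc
Sbpl: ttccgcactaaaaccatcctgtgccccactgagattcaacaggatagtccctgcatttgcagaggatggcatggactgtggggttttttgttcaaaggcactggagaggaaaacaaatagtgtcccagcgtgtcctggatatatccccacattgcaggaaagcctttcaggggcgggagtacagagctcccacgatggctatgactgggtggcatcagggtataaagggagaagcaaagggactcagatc

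The windows of Svs5 and Svs6 were 93.3% identical over their alignment, with 237 identical bases, 9 mismatches and 8 gap bases. Both hold 1 hexamer, in the same surrounding sequence. The Ceacam10 window holds 3, of which 2 stand back to back as TGTTCTAGAACA, and the Sbpl window holds none of these letters. A hexamer was present in the first window of 5 of the 9 genes on the array, against 16.1% of 32851 windows of the same length. The nearly identical windows of Svs5 and Svs6 both count among these 5. A match of letters is a description of the window and not a binding site.

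The arrays differed in brightness before scaling. The 75th percentile of the probe signals was 663 on the normal-mated, 273 on the vasectomized-mated and 826 on the not mated array, and levels below are given as a percentage of that value for the array. The lowest signal that the scanner software marked as well above background corresponded to 0.995%, 2.12% and 1.60% of it in the same order. The vasectomized-mated array stood apart. Where a gene had more than 1 probe above background, the log2 ratios of its probes spread over more than 2-fold for 3023 of 5821 genes (51.9%) in vasectomized-mated against not mated females and for 2974 of 5948 genes in normal-mated against vasectomized-mated females, but for 750 of 6302 genes (11.9%) in normal-mated against not mated females. The tissue markers were present on all arrays: 10 of 10 oviduct and uterus genes were well above background on each, among them the oviduct secretory glycoprotein Ovgp1, with signals of 227800, 107100 and 234100 on the normal-mated, vasectomized-mated and not mated arrays. Their levels differed. In normal-mated against not mated females, 4 of the 10 were at least 2-fold lower (12.6% of all genes) and 1 higher (9.75%). In vasectomized-mated against not mated females, 4 were lower (15.8%) and 2 higher (26.3%). The uterine homeobox genes Hoxa10 and Hoxa11 had log2 ratios of -2.87 and -3.50 in normal-mated and of 0.08 and -0.71 in vasectomized-mated against not mated females. Pax8 and Msx1 had -0.91 and -0.53 in normal-mated and -3.73 and -2.79 in vasectomized-mated females. The second Pax8 probe gave bounds of at most -1.78 in normal-mated and at most -0.69 in vasectomized-mated females. The part of such tissue differences in the member values was not tested.

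Most of the seminal vesicle genes gave no signal after either mating. Of the 7 members named on the array, those well above background numbered 4 in the normal-mated pool, 4 in the vasectomized-mated pool and 3 in the not mated pool, against 69.7%, 66.4% and 67.0% of all 27670 genes. The members above background on both mated arrays were Svs5, Ceacam10, Tgm4 and Sbp, the last by 1 of its 2 probes. By its strand and approximate distance from Sbp, that Sbp-named probe appears to lie at the neighbour Sbpl. The RefSeq Sbp probe was at background on every array. Svs5 was the 1 member well above background in both mated pools and not in the not mated pool, where it was marked as positive and significant against background but not as well above it. With Svs3a and Svs4 added, the counts stayed at 4, 4 and 3, now of 9 genes.

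**Figure D1:**
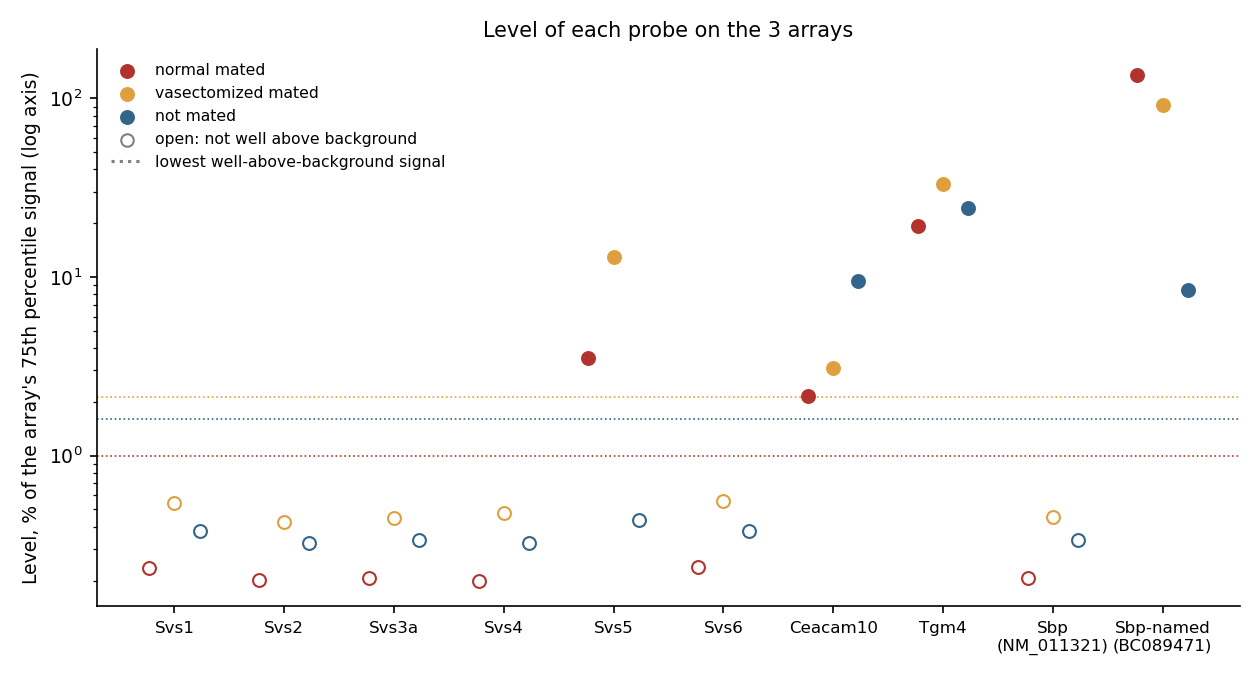
Level of each of the 10 probes (x axis) as a percentage of the array's 75th percentile signal (y axis, log scale) on the normal-mated, vasectomized-mated and not mated arrays, 1 point per array, with open points for probes not well above background and dotted lines at each array's lowest well-above-background signal. The probes of Svs1, Svs2, Svs3a, Svs4 and Svs6 and the Sbp RefSeq probe are open on every array, between 0.199% and 0.556%, while the Sbp-named probe spans 136%, 92.1% and 8.45%.

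Svs2, the main clot-forming protein of the plug, had processed signals of 1.33 on the normal-mated, 1.17 on the vasectomized-mated and 2.69 on the not mated array, none well above background. Svs3a, another clot-forming transglutaminase substrate of the seminal vesicle, had signals of 1.37, 1.23 and 2.77 in that order, and Svs4, a small androgen-dependent secretory protein, 1.32, 1.31 and 2.68. Svs6, the neighbour of Svs5 in the cluster, had signals of 1.58, 1.52 and 3.14. Svs1, a secreted relative of the copper amine oxidases, had 1.56, 1.49 and 3.12. On all 3 arrays these probes were therefore at the bottom of the scale, and the not mated array had the highest figure for each. Except for Svs4 on the vasectomized-mated array, these figures are surrogate values that the software puts in place of signals indistinguishable from background, so their order carries no ranking. Svs4 there was marked as positive and significant against background but not as well above it. For these 5 genes no ratio was formed: RNA below the detection limit of these arrays would look the same.

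Svs5, a small secretory protein of the same cluster, was the exception among the Svs genes. Its signal was 23.2 on the normal-mated and 35.2 on the vasectomized-mated array, both well above background, and 3.60 on the not mated array, which did not pass. As a level this was 3.51%, 12.9% and 0.436% of the 75th percentile. The software's own error of the signal, which covers pixels and not animals, was 2.76, 3.79 and 2.95. The mean signals before background correction were 50.8, 61.7 and 32.8, over local backgrounds of 21.5, 22.5 and 21.0. Both mated pools were thus above the not mated pool before any scaling. Against the detection limit of the not mated array, Svs5 was at least 2.19-fold higher in normal-mated than in not mated females (log2 ratio at least 1.13) and at least 8.04-fold higher in vasectomized-mated than in not mated females (at least 3.01). Between the matings it was 3.68-fold lower in normal-mated than in vasectomized-mated females (log2 ratio -1.88). Scaling on the spike-in controls turned that difference to 0.31 and ended the 2-fold calls against not mated females (at least 0.60 and at least 0.29), and normexp background correction gave at least 0.34 and at least 0.99.

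Even where detected, the Svs5 level was low: among detected probes the Svs5 probe stood at percentile 15.8 in the normal-mated and at percentile 28.3 in the vasectomized-mated pool. The probe lies at chr2:164075133-164075192 on the plus strand (mm7, the build of the array design). Within 100 kb of it, the probes of Svs2, Svs4, Svs3a and Svs6 were at background on all arrays. On its other side, Slpi, an inhibitor of leukocyte proteases, had signals of 18070, 7464 and 3512 on the normal-mated, vasectomized-mated and not mated arrays, with log2 ratios of 2.68 in both matings against not mated females. A second Slpi probe was dim, with signals of 12.1, 4.25 and 2.64. Rbpjl, a transcription factor of pancreatic acinar cells, had signals of 14.0, 25.2 and 10.0, and only the first 2 were well above background. These neighbours were looked up after the member values had been seen.

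Markers of other cell types also differed between the arrays. Beside them, 69.7%, 66.4% and 67.0% of all genes were well above background on the normal-mated, vasectomized-mated and not mated arrays. All 7 of the 7 ovary and oocyte markers passed the detection limit on both mated arrays and 5 did so on the not mated array, and their summed level was 152, 1435 and 52.5% of the 75th percentile on the normal-mated, vasectomized-mated and not mated arrays. Among them the steroidogenic enzyme Hsd3b1 had signals of 329, 2299 and 24.7. Neutrophil markers were well above background for 6, 6 and 3 of 7 genes, with summed levels of 6425, 9351 and 24.4%, and Ngp was at background on every array. S100a9 makes up most of the sum on both mated arrays. Between the matings, the median log2 ratio of the 6 neutrophil genes compared was 0.19 for normal-mated against vasectomized-mated females. S100a9 and Camp had ratios of -0.59 and -2.33 there, and S100a8, Csf3r, Mmp8 and Cxcr2 lay between 0.09 and 0.86. Pancreatic acinar markers summed to 48.6, 130 and 32.9%, with 4, 4 and 2 of 7 genes well above background and Cela2a and Prss2 at background throughout. The part of these cells in the Svs5 signal was not tested.

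Among 18673 genes well above background on at least 2 arrays, those closest to Svs5 in pattern over the arrays included MGC5739 and 1700049E17Rik1, at distances of 0.012 and 0.0642 log2 units. 1700049E17Rik1 stood at 3.38, 13.2 and 0.972% of the 75th percentile on the normal-mated, vasectomized-mated and not mated arrays. Values under an array's lowest well-above-background signal were set to it for this measure, which applies to Svs5 and 1700049E17Rik1 on the not mated array. The likeness is of 3 centred values, 1 per array, and is a description.

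**Figure D2:**
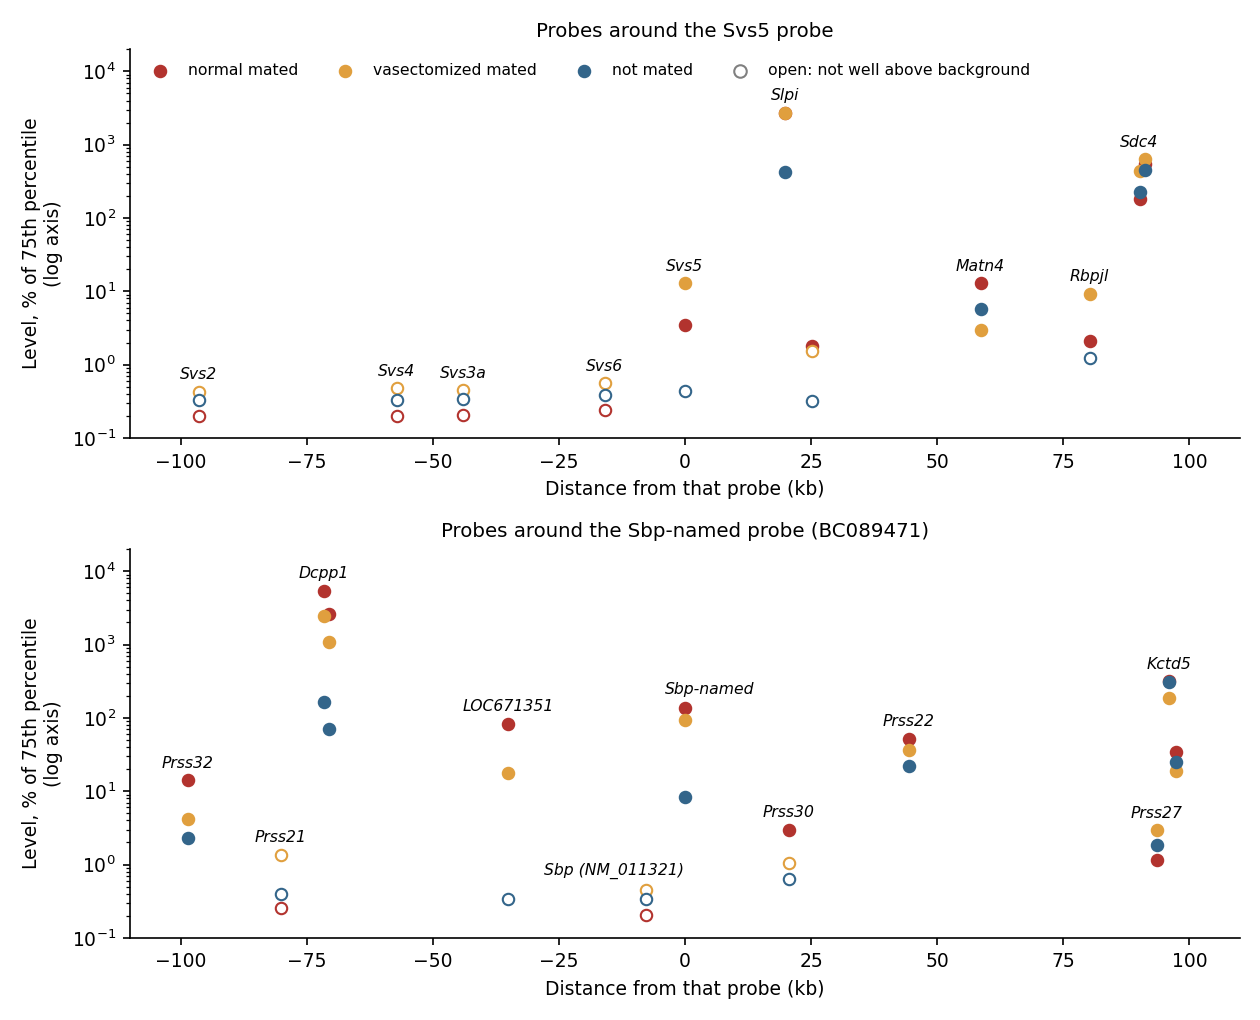
Level of every probe within 100 kb of the Svs5 probe (top) and of the signal-giving Sbp-named probe (bottom), as a percentage of the array's 75th percentile signal (y axis, log scale), by distance from that probe in kb (x axis), with 1 point per array and open points for probes not well above background. Svs2, Svs4, Svs3a and Svs6 are open on all arrays while Slpi, with the normal-mated point under the vasectomized-mated one, is high. Around the Sbp-named probe, Dcpp1 and LOC671351 are higher on both mated arrays and the RefSeq Sbp probe is open.

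The 2 probes named Sbp gave opposite answers. Sbp is the spermine-binding protein of the mouse prostate, an androgen-dependent secretory glycoprotein. The probe designed on its RefSeq transcript NM_011321 (chr17:22125175-22125234, plus strand, mm7) had signals of 1.38 on the normal-mated, 1.24 on the vasectomized-mated and 2.78 on the not mated array, all surrogate values at background. The other probe, designed on the cDNA BC089471 (chr17:22132980-22133039, minus strand, mm7), had signals of 900, 252 and 69.8, well above background on all arrays. That probe was 16.1-fold higher in normal-mated than in not mated females (log2 ratio 4.01) and 10.9-fold higher in vasectomized-mated than in not mated females (3.45). The difference between the matings, 0.56 in favour of normal-mated females, was under 2-fold. Scaling on the spike-in controls lowered the vasectomized-mated ratio to 0.73, under 2-fold, and raised the difference between the matings to 2.75.

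The accession BC089471 is not among the RefSeq transcripts of Sbp, and the probe lies 7746 bases beyond the first one on the opposite strand. In RefSeq (GRCm38.p6) Sbp runs on the plus strand at chr17:23922551-23945603, and Sbpl, a gene named for its likeness to Sbp, follows on the minus strand at chr17:23953085-23955273, 7482 bases from the end of Sbp. No probe on the array carries the accession of Sbpl. Strand and approximate distance relative to Sbp are those of Sbpl and not of Sbp. The probe positions (mm7) and the RefSeq positions belong to different builds and were not converted, so the position of the probe at Sbpl is inferred. Hybridisation of related transcripts to this probe was not tested. The values are given here as those of the Sbp-named probe, and Sbp itself was not detected by its RefSeq probe. With Sbp taken from the RefSeq probe, a choice made after seeing the data, detected members numbered 3 in the normal-mated, 3 in the vasectomized-mated and 2 in the not mated pool.

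Some genes within 100 kb of the Sbp-named probe were also higher after mating, and others were not. Dcpp1, which encodes a secretory protein first described in salivary gland demilune cells, had 2 probes between 70651 and 71678 bases away. The brighter one had signals of 36090, 6735 and 1360 on the normal-mated, vasectomized-mated and not mated arrays, with log2 ratios of 5.05 and 3.90 for the 2 matings against not mated females. The other had signals of 17410, 2960 and 587, with ratios of 5.21 and 3.93. LOC671351, a predicted gene 35059 bases away, had signals of 547, 47.9 and 2.84, the last not well above background, and was higher by a log2 ratio of at least 5.69 and at least 3.45. The next probes in the other direction were of the serine proteases Prss30 and Prss22. Prss30 was well above background on the normal-mated array only (log2 ratio at least 0.89), and Prss22 had ratios of 1.26 and 0.73. Elsewhere in the window Prss32 had 2.63 and 0.86, Prss27 had -0.65 and 0.70, and Prss21 was at background on every array. Kctd5, at the edge of the window, differed by 0.02 and -0.75 on its brighter probe. Over all genes, the 3 closest in pattern to the Sbp-named probe were Ifi44, an interferon-induced gene, Itga2, an integrin, and Steap1, a membrane metalloreductase, at distances of 0.108, 0.149 and 0.187 log2 units. Itga2 was under the detection limit of the not mated array, at 0.783% of the 75th percentile, and was set to that limit, so its distance rests on a bound.

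Ceacam10, a secreted member of the carcinoembryonic antigen family that binds mouse sperm, was lower after both matings. Its signal was 14.3 on the normal-mated, 8.46 on the vasectomized-mated and 78.2 on the not mated array, well above background on all 3. The highest level was on the not mated array. The source of the Ceacam10 signal was not tested. Ceacam10 was 4.40-fold lower in normal-mated than in not mated females (log2 ratio -2.14) and 3.06-fold lower in vasectomized-mated than in not mated females (-1.61), and the matings differed by -0.52, which spike-in scaling turned to 1.67. Among detected probes it stood at percentile 8.95 in the normal-mated, 3.62 in the vasectomized-mated and 25.1 in the not mated pool. After normexp background correction the ratios against not mated females were -0.64 and -0.63, under 2-fold. The genes with the most similar pattern were Depdc7, Prdm11 and Hlx, a homeobox gene, at distances of 0.020, 0.047 and 0.048 log2 units. Hlx was well above background on 2 of the 3 arrays.

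Tgm4, the transglutaminase that cross-links the plug in the male, was detected in all 3 pools. Its signal was 128 on the normal-mated, 90.9 on the vasectomized-mated and 199.9 on the not mated array, or 19.3%, 33.3% and 24.2% of the 75th percentile. No pair of arrays lay 2-fold apart: the log2 ratio was -0.33 for normal-mated against not mated, 0.46 for vasectomized-mated against not mated and -0.79 for normal-mated against vasectomized-mated females. Without replicates this does not show equal levels. Under spike-in scaling the vasectomized-mated ratio was -2.26 and the difference between the matings 1.40. The probe lies at chr9:122772892-122772951 on the plus strand (mm7), and the nearest other probe, 1074 bases away on the minus strand, is of Zdhhc3, with signals of 69.99, 47.0 and 102 in the same order of arrays. Its log2 ratio in vasectomized-mated against not mated females was 0.47. Further Zdhhc3 probes, 6949 and 9740 bases away, had -1.52 and -1.35 in that comparison.

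**Figure D3:**
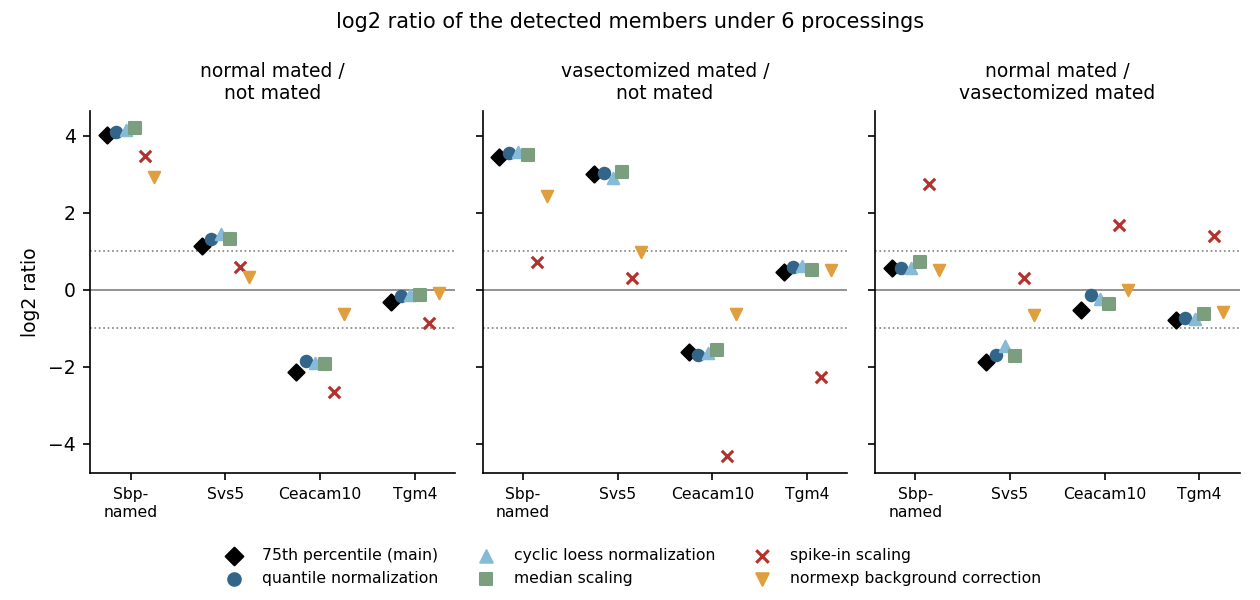
log2 ratio (y axis) of the Sbp-named probe, Svs5, Ceacam10 and Tgm4 in each of the 3 comparisons, with 1 symbol per processing, a line at 0 and dotted lines at 2-fold; the Svs5 ratios against not mated females are lower bounds. The main values are 4.01, 1.13, -2.14 and -0.33 for normal-mated against not mated females, and the spike-in symbols stand apart wherever the vasectomized-mated array is compared.

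Counted over the 7 named members, 4 could be compared. In normal-mated against not mated females, 2 were at least 2-fold higher (the Sbp-named probe and Svs5), against a background of 9.75% of 19826 genes, and 1 was lower (Ceacam10), against 12.6%. In vasectomized-mated against not mated females the same 2 members were higher, against 26.3% of 19526 genes, and Ceacam10 was lower, against 15.8%. In normal-mated against vasectomized-mated females 0 were higher, against 13.9% of 19837 genes, and 1, Svs5, was lower, against 27.0%. Svs5 entered the comparisons with not mated females through its high side, so it could only be counted as higher. With 4 genes the counts stand as values and no share is read from them. The median log2 ratio of all genes was -0.04, 0.21 and -0.28 in these 3 comparisons. The comparisons of the 2 matings with not mated females share the not mated array.

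Other genes of the same glands were looked at as a check on carried-over RNA. Of 4 seminal vesicle secretion genes outside the members 3 were on the array, Pate4 (named Svs7 there), Sva and Spinkl, and 0 of them was well above background on any array. Their summed level was 1.41% on the normal-mated, 3.54% on the vasectomized-mated and 3.00% on the not mated array. Of 7 prostate genes on the array, 4, 4 and 3 were well above background, against 69.7%, 66.4% and 67.0% of all genes. Pbsn, the prostate secretory protein probasin, Msmb, a major prostate secretory protein, and Hoxb13, a homeobox gene of the prostate, were at background on all arrays. Tmprss2, an epithelial serine protease, had log2 ratios of 0.19 in normal-mated and -1.35 in vasectomized-mated against not mated females, and Azgp1 and Folh1 were within 2-fold in both.

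Genes of other male compartments gave mixed signals. For comparison, 69.7%, 66.4% and 67.0% of all genes were well above background on the normal-mated, vasectomized-mated and not mated arrays. Of 10 epididymis markers, 2 were detected in the normal-mated, 3 in the vasectomized-mated and 0 in the not mated pool, with summed levels of 37.0, 64.5 and 4.41%. Adam7 had no usable spot on the vasectomized-mated array. Crisp1, which binds sperm in the epididymis, had signals of 137, 9.63 and 2.93, the last not well above background, and its log2 ratio against not mated females was at least 3.69 in normal-mated and at least 1.14 in vasectomized-mated females. Cst11 had signals of 91.8, 72.3 and 8.18, and Cst8 had 5.09, 83.5 and 2.76, of which only the signal after vasectomized males passed the detection limit. Crisp4, Lcn5, Lcn8, Spag11a, Rnase10 and Gpx5 were at background on all arrays. Of 12 sperm and spermatid markers, 9, 7 and 6 were well above background, and Odf1, Akap4 and Smcp were at background on every array. Ldhc, the germ-cell lactate dehydrogenase, had log2 ratios of 2.00 in normal-mated and 0.82 in vasectomized-mated against not mated females. Tnp2 went the other way, with ratios of 0.25 and 1.37. The protamine Prm1 had ratios of -0.65 and 0.30, with its probes between -0.65 and 0.48 and between -1.09 and 0.30. Between the matings, 1 of 9 sperm and spermatid markers compared was at least 2-fold higher in normal-mated females (13.9% of all genes). In the same comparison 2 were lower (27.0%), and the median log2 ratio was -0.59. The part of these compartments in the member signals was not tested.

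Relatives of the members by protein family were mostly detected. Of 16 relatives on the array, 14 were detected in the normal-mated, 14 in the vasectomized-mated and 13 in the not mated pool. The shares over all genes were 69.7%, 66.4% and 67.0%. In normal-mated against not mated females, 9 of 14 compared were at least 2-fold higher (9.75% of all genes) and 1 was lower (12.6%). In vasectomized-mated against not mated females, 9 of 14 were higher (26.3%) and 1 was lower (15.8%). Median log2 ratios were 1.80 and 1.99 beside the all-gene values above. Spike-in scaling, which lowered vasectomized-mated against not mated ratios of all probes, was not applied to the gene lists or neighbours. Aoc1, a copper amine oxidase related to Svs1, had signals of 21870, 17380 and 3820 and ratios of 2.83 and 3.78. Tgm5, a transglutaminase like Tgm4, had ratios of 0.33 and 4.41. Of the Ceacam10 relatives, Ceacam2 had ratios of 3.03 and 1.96, though its second probe gave -1.01 in normal-mated females, and Ceacam1 had 2.82 and -2.14. Zg16, a secretory granule lectin, had ratios of 1.88 and 3.30, and the protease inhibitor relative Spink4 1.91 and 3.90.

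Receptors for ovarian steroids were measured too. The progesterone receptor Pgr had log2 ratios of -1.70 in normal-mated and -1.32 in vasectomized-mated against not mated females on its brighter probe, and -0.99 and 1.15 on the other, so the direction after vasectomized males depends on the probe. The oestrogen receptor Esr1 had ratios of -0.88 and 1.98 on its brighter probe and of -1.04 and -3.27 on the other, again opposite after vasectomized males, and Esr2 was at background on every array.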

How the data were processed

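Total RNA of 3 pools was hybridised to 3 single-colour Agilent arrays. The deposited intensity values are background-corrected processed signals from Agilent Feature Extraction (version 9.5.3 per the submitters' processing notes, 10.5.1.1 per the file headers), on a linear scale and without scaling between arrays. Detection flags and probe annotation are the other deposited columns used, per the file headers. Spots with outlier flags were dropped, the spots of a probe were averaged as log2, and each array's 75th percentile was subtracted (R 4.3.3, limma 3.58.1, Python 3.11.15, pandas 2.3.3). A gene takes its brightest probe. Where 1 array of a pair passed the detection flag the ratio is a bound, where neither did none was formed, and 2-fold is the threshold. With 1 array per group there is no test, and the number of arrays limits the precision. Replicate spots had a median SD of 0.070, 0.071 and 0.072 log2 units on the normal-mated, vasectomized-mated and not mated arrays, which leaves out animals. RefSeq (GRCm38.p6) named 22951 probes by accession, 6659 by symbol and 3109 by synonym, and 8455 kept the deposited name. The counting was tested on simulated data. The members and gene lists were chosen with earlier results of these data known. Named genes are every member, up to 4 genes per list and comparison with the largest ratios, the 3 closest patterns, and neighbours within 100 kb, added after values were seen. Some genes that this rule names are not reported here. Alternatives were other scalings, background correction, filters, probes and thresholds.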

Additional observations from a re-analysis of the deposited data

How the results depend on the processing

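Of 84 counts of members recomputed under alternatives, 67 stayed within 1.5 times the reported count. Spike-in scaling, which shifted the arrays by -3.30, -5.49 and -2.78 log2 units (normal-mated, vasectomized-mated, not mated), left 1 member higher in normal-mated against not mated, 0 higher and 2 lower in vasectomized-mated against not mated, and 3 higher and 0 lower in normal-mated against vasectomized-mated females, and turned the Svs5 ratio between the matings to 0.31. Normexp background correction left 1 higher and 0 lower in each mating against not mated females, and 0 lower between the matings. Requiring both arrays above background left 1 higher in each mating, and so did taking Sbp from its RefSeq probe (an alternative chosen after seeing the data). With no filter, 4 members were lower in normal-mated against vasectomized-mated females, 3 of them at background, and 2 at a 1.5-fold threshold. At 3-fold, 1 was higher in normal-mated against not mated females. The causes were not tested. Over the alternatives that keep that probe alone, the Sbp-named ratio ran between 2.93 and 4.20 in normal-mated and between 0.73 and 3.58 in vasectomized-mated against not mated females, and averaging in the background-level RefSeq probe gave 1.65 and 1.94. Over all alternatives the Ceacam10 ratio ran between -2.67 and -0.64 and between -4.33 and -0.63. No paired analysis was possible because each group has 1 array, and no array could be left out for the same reason. Signal over background limits what can be said of Svs1, Svs2, Svs3a, Svs4, Svs6 and the RefSeq Sbp probe.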
